A study of Mus musculus with 58 samples.

Results

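The genes described here write, copy and remove 5-methylcytosine in mouse DNA. They are the DNA methyltransferases Dnmt1, Dnmt3a and Dnmt3b, the methyltransferase cofactors Dnmt3l and Uhrf1, the TET dioxygenases Tet1, Tet2 and Tet3, and the DNA glycosylase Tdg. The 9 genes were chosen by name, with earlier results of these data known, and were found by matching their symbols to the Ensembl identifiers of the count tables, in which 20177 genes are listed. Their reads were followed through loss of the core subunits of the SET1/COMPASS H3K4 methyltransferases and through retinoic acid (RA) differentiation.

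All libraries came from E14 mouse embryonic stem (mES) cells of the 129/Ola background, grown in serum with LIF. In DPY30–mAID cells, which also express OsTIR1, DPY30 carries an auxin-inducible degron on both alleles, and in RBBP5–FKBP cells RBBP5 carries on both alleles the FKBP12(F36V) tag through which dTAG-13 directs its degradation. The Kdm5a/b-dKO cells are DPY30–mAID cells from which the H3K4 demethylase genes Kdm5a and Kdm5b were deleted, so they also lose DPY30 in auxin. DPY30–mAID cells came from homozygous clones that were then selected for OsTIR1, with no further cloning stated, and the other lines were single-cell sorted. The labels do not tell from which of the picked dKO clones a replicate came. For SLAM-seq, DPY30–mAID and RBBP5–FKBP cells were sampled at 0, 2, 8 and 24 h of degrader (n = 3 per time) and dKO cells at 0, 2, 4, 8, 24 and 48 h of auxin (n = 2 per time), each after 60 min in 100 µM 4-thiouridine. For Quant-seq, DPY30–mAID cells were placed in 1 µM RA without LIF and with DMSO for 0 h, 8 h, 1 day, 2 days, 4 days or 6 days, or with auxin for the same times other than 0 h (n = 2 per time).

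DNMT3A and DNMT3B place methyl groups on unmethylated CpG sites, and DNMT3L, which has no catalytic activity of its own, assists them. UHRF1 recognises the hemimethylated sites left by DNA replication and brings in DNMT1, the maintenance enzyme that copies the mark to the new strand. TET proteins oxidise 5-methylcytosine, and TDG excises the most oxidised forms for base excision repair. Unmethylated CpG-rich promoters usually carry H3K4me3 and DNMT3L binds histone H3 tails that are not methylated at K4, so this family links both marks. TET1 and TET2 are the TET proteins known for their abundance in mES cells.

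The stretches of 30 bases just before the RefSeq start (GRCm38.p6, 5′ to 3′ in the direction of the gene) are shown for 4 members on which the results turn, to show how their promoters differ in CpG content. Capitals mark CpG.
Dnmt3b, chr2:153649419-153649448, plus strand: gctacaagggcagCGgCGcCGccccctccc
Dnmt3l, chr10:78042257-78042286, plus strand: cttaagctgtgatgggctgtttccttcttc
Tet1, chr10:62887325-62887354, minus strand: gtaccCGCGcactcCGctCGtggaacactg
Tet2, chr3:133544391-133544420, minus strand: gctCGcatgccagtcaCGtcCGccccctCG
Counted over the 300 bases of each RefSeq promoter window, Tet2 held 57 CpG, Dnmt3b 30, Tet1 17 and Dnmt3l 6 in the window shown, where the median of 32851 mouse windows was 7. At most this many CpG were found in 99.9% of windows for Tet2, in 89.4% for Dnmt3b, in 70.3% for Tet1 and in 47.9% for Dnmt3l. The RefSeq start of Tet1 lies inside the gene annotation used below, whose 5′ end on the minus strand is at 62908996. The sequence before that end was not examined. These are descriptions of the sequence, and no methylation was measured here.

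Both assays read RNA at its 3′ end, so read counts were compared between libraries for 1 gene and not between genes. In total 58 libraries were analysed, of which the pair labelled DMSO day 6 held identical values and was counted as 1 library without a test. Libraries held 2013350 to 2806821 reads in DPY30–mAID, 1721185 to 2852331 in RBBP5–FKBP and 5931269 to 7792404 in dKO cells for SLAM-seq, and 1264241 to 2543632 for Quant-seq. Of 8 mES markers, the summed level was 3693 to 4849 CPM (reads of a gene per 1000000 reads of its library) across all SLAM-seq libraries. Of Kdm5a and Kdm5b, the dKO libraries held 26.0 to 40.7 and 109 to 151 CPM. DPY30–mAID SLAM-seq libraries held more, at 61.1 to 107 and 389 to 946 CPM. This does not fully check the deletion because 3′ ends can lie outside the deleted part. In Quant-seq of DPY30–mAID cells at 0 h the genes were at 40.9 to 46.1 and 299 to 343 CPM. With DMSO in RA, Kdm5a at 8 h was at 30.6 to 37.1 CPM and Kdm5b at day 1 at 141 to 149 CPM, within the dKO ranges. Reads covered 11.6 T positions on average in Quant-seq, 11.2 in dKO and 18.7 in DPY30–mAID SLAM-seq libraries. Of the reads assigned to Tdg 98.9%, to Uhrf1 43.0% and to Tet1 10.4% also mapped elsewhere in the genome, against at most 1.03% for the other 6 genes. The values of Tdg and Uhrf1 are therefore uncertain. Fits without multiply mapped reads were made for total reads only, so T>C calls of these genes were not checked in this way. A gene passed where the adjusted p of edgeR's quasi-likelihood test, corrected over all genes tested, was below 0.05, and log2 fold changes are given ± standard error. In bulk RNA, fewer cells of a type and less RNA per cell cannot be told apart.

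In RA with DMSO, most of the family fell within the first day. RA was added as LIF was withdrawn, and no library had only 1 of these changes. RA, LIF withdrawal and time in culture therefore cannot be told apart. At day 1 Dnmt3l, Dnmt3b, Tet1, Tet2, Dnmt1 and Uhrf1 were lower than at 0 h, whereas Dnmt3a, Tet3 and Tdg did not pass against 0 h. From day 1 to day 2 Dnmt3l and Dnmt3b rose again while Tet1 stayed low, and by day 4 Dnmt3a and Tet3 had risen above 0 h. Of the 9 genes, 5 passed at 8 h (18.3% of 11415 genes passed), 6 at day 1, all lower (51.7%, and 25.5% lower), 6 at day 2, all lower (48%, and 22.9% lower), and 7 at day 4 (54.3%). Between 8 h and day 1 itself 7 of 9 passed, all lower (35.5%, and 18.9% lower), of which the falls of Dnmt1, Dnmt3b, Dnmt3l, Tet1 and Uhrf1 held whichever library was left out and those of Dnmt3a and Tet2 did not.

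**Figure D1:**
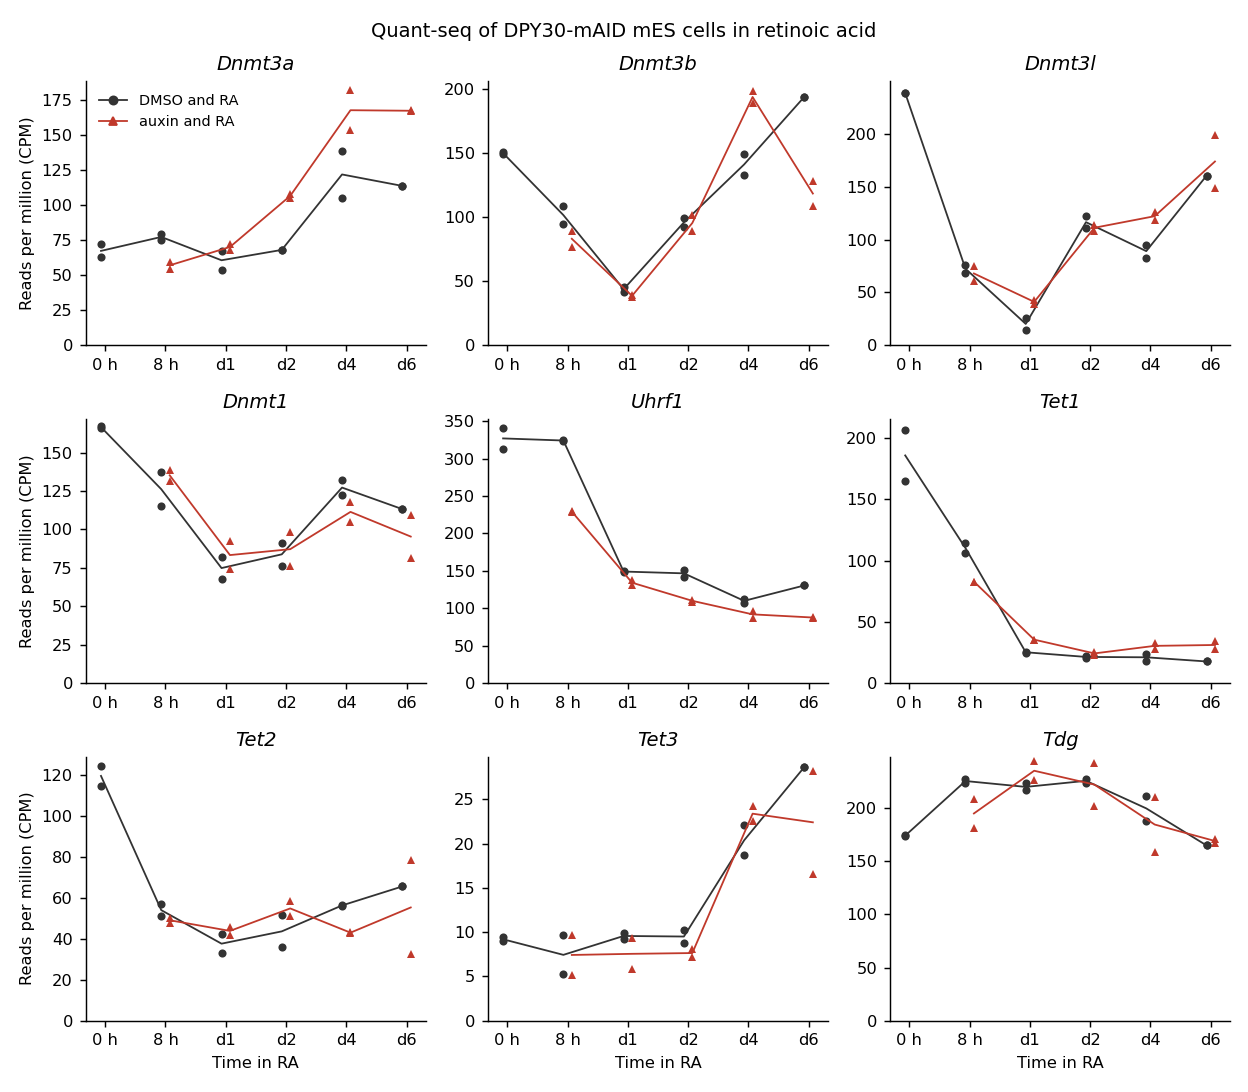
Read level of each gene in CPM (vertical axes, Quant-seq) against time in RA, with DMSO libraries as circles, auxin libraries as triangles and lines through the group means; the identical pair of DMSO day 6 is drawn as 1 point. Dnmt3l and Dnmt3b dip at day 1 and return, while Tet1 drops from 166 to 206 CPM at 0 h to at most 25.5 CPM in every DMSO library from day 1 on.

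Dnmt3l (chromosome 10 from 78041947 to 78063622, plus strand, GRCm38), the inactive cofactor, had the largest change of the family. Its level was 239 and 238 CPM at 0 h, 68.4 and 76.4 CPM at 8 h, and 25.5 and 14.9 CPM at day 1 in DMSO. It was back at 111 and 122 CPM at day 2, followed by 95.1 and 83.0 CPM at day 4 and 160 CPM in the day 6 library. No library of 8 h to day 6 reached the 0 h level, and both day 2 libraries lay above the day 1 libraries. Dnmt3l thus fell by 1.65 ± 0.15 on the log2 scale at 8 h (adjusted p = 1.6e-08) and by 3.60 ± 0.19, or 12.2-fold, at day 1 (adjusted p = 3.42e-14). It then rose by 2.49 ± 0.20 from day 1 to day 2 (adjusted p = 7.01e-10), a step at which 2 of 9 genes passed (20.1% of all genes), and the fold to day 4 from 0 h was −1.57 ± 0.15 (adjusted p = 1.81e-09). These calls held whichever library was left out, with day 1 values of −3.97 to −3.19.

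Dnmt3b (chromosome 2 from 153649450 to 153687730, plus strand) followed a shallower course of the same shape. DMSO libraries held 149 and 151 CPM at 0 h, 109 and 94.4 CPM at 8 h, 45.6 and 41.9 CPM at day 1, and 99.4 and 92.3 CPM at day 2. At day 4 they held 133 and 149 CPM, overlapping the 0 h libraries at the upper end, and the day 6 library held 194 CPM. The fall at day 1 was 1.82 ± 0.15 on the log2 scale (adjusted p = 9.86e-11) and the rise from day 1 to day 2 was 1.10 ± 0.15 (adjusted p = 7.63e-06). At day 4 the difference from 0 h was −0.24 ± 0.12 (adjusted p = 0.103). The smaller fall at 8 h of 0.50 passed (adjusted p = 0.00735) but was lost without replicate 2 of 0 h or of 8 h (adjusted p up to 0.125).

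Dnmt3a (chromosome 12 from 3806007 to 3914443, plus strand), the other de novo enzyme, ended above its 0 h level. It was at 62.7 and 71.9 CPM at 0 h, 67.3 and 54.0 CPM at day 1, 68.0 and 68.1 CPM at day 2, and 139 and 105 CPM at day 4. Both day 4 libraries, and the day 6 library at 114 CPM, lay above all DMSO libraries of 0 h to day 2. The rise was 0.70 ± 0.14 against 0 h (adjusted p = 0.000215) and 0.77 against day 2, where 4 of 9 genes rose and 2 fell (32.4% of all genes passed). At most 4 of the 9 passed with any 1 library left out, and 3 without replicate 2 of day 4. Leaving out each library in turn kept the rise from day 2 at 0.56 to 0.95.

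Both maintenance genes were lower at day 1. Dnmt1 (chromosome 9 from 20907209 to 20959888, minus strand) was at 166 and 167 CPM at 0 h, 137 and 115 CPM at 8 h, 81.9 and 67.8 CPM at day 1, 76.2 and 91.4 CPM at day 2, 123 and 132 CPM at day 4, and 113 CPM in the day 6 library. Uhrf1 (chromosome 17 from 56303321 to 56323486, plus strand) was at 340 and 313 CPM at 0 h, 325 and 323 CPM at 8 h, 150 and 148 CPM at day 1, 142 and 152 CPM at day 2, 107 and 112 CPM at day 4, and 130 CPM in the day 6 library. Every library of day 1 to day 4 lay below both 0 h libraries for both genes, but Dnmt1 at day 4 lay above its day 1 and day 2 libraries and Uhrf1 lay below its own. The day 6 library, which was not tested, went the opposite way for both genes, below day 4 for Dnmt1 and above it for Uhrf1.
At day 1 Dnmt1 fell by 1.20 ± 0.15 and Uhrf1 by 1.18 ± 0.10 on the log2 scale (adjusted p = 2.83e-07 and 4.80e-10). From day 2 to day 4 Dnmt1 rose by 0.53, which was lost without replicate 1 of day 2 or replicate 2 of day 4 (adjusted p up to 0.125), and Uhrf1 fell by 0.49, which held throughout. Among 13 measured S-phase genes 2 rose and 9 fell at day 1 with a median of −0.55, and 1 rose and 12 fell at day 4 with a median of −1.15, against medians over all genes of 0.04 and 0.06 (51.7% and 54.3% of all genes passed). Whether the share of cells in S phase had a part in the fall of Dnmt1 and Uhrf1 was not tested.

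Tet1 (chromosome 10 from 62804570 to 62908996, minus strand) showed the deepest lasting fall. It was at 206 and 166 CPM at 0 h, 114 and 106 CPM at 8 h, 25.5 and 24.8 CPM at day 1, 22.1 and 20.5 CPM at day 2, 23.9 and 18.2 CPM at day 4, and 17.6 CPM in the day 6 library. No group from day 1 on overlapped 8 h or 0 h. The fall was 0.69 ± 0.14 at 8 h (adjusted p = 0.000657), 2.93 ± 0.17 at day 1 (7.62-fold, adjusted p = 1.31e-13), and the day 4 value was −3.29 ± 0.17 (9.78-fold, adjusted p = 5.92e-15).

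Tet2 (chromosome 3 from 133463679 to 133545139, minus strand) fell early and stayed below its 0 h libraries. Its libraries held 125 and 115 CPM at 0 h, 56.9 and 51.2 CPM at 8 h, and 42.3 and 33.1 CPM at day 1. They held 51.5 and 35.9 CPM at day 2 and 56.3 and 56.4 CPM at day 4, and the day 6 library held 65.7 CPM. The fall at 8 h was 1.08 ± 0.20 (adjusted p = 0.000276), and the day 1 and day 4 values were −1.71 ± 0.21 and −1.24 ± 0.20 (adjusted p = 2.13e-07 and 7.35e-06). All 3 calls held when any 1 library was left out.

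Tet3 (chromosome 6 from 83362373 to 83459084, minus strand) was read at 5.22 to 10.3 CPM in every DMSO library of 0 h to day 2 and at 22.1 and 18.7 CPM at day 4, with 28.6 CPM in the day 6 library. The rise at day 4 against 0 h was 0.99 ± 0.31 (adjusted p = 0.00865). It was lost without replicate 1 of day 4 (adjusted p = 0.0708) and in DESeq2 (adjusted p = 0.0672). Tdg (chromosome 10 from 82629828 to 82650799, plus strand) was at 173 and 175 CPM at 0 h. It was between 188 and 227 CPM in the other DMSO libraries up to day 4 and at 165 CPM in the day 6 library. Its rise at 8 h was 0.44 (adjusted p = 0.0116), was lost whichever library was left out, and rests on reads that nearly all also mapped elsewhere.

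Marker sums changed over the same times, not all in the same direction. The 8 mES markers summed to 4846 to 5124 CPM at 0 h, 3101 to 3281 CPM at day 1, 2019 to 2047 CPM at day 4 and 1020 CPM at day 6 in DMSO. The 6 primitive endoderm markers summed to 4.48 to 8.65 CPM at 0 h, 25.3 to 28.8 CPM at day 1 and 621 to 634 CPM at day 4. The 6 neural markers summed to 110 to 118 CPM at 0 h and 63.9 to 72.7 CPM at day 1. At day 2 and day 4 they summed to 109 to 122 and 86.5 to 93.7 CPM. The 6 feeder or fibroblast markers summed to 35.0 to 45.2 CPM at 0 h. At day 1 and day 4 those summed to 4.88 to 6.61 and 29.4 to 38.7 CPM. The part of a changing mix of cells in the values of the family was not tested.

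Across the 11 Quant-seq groups, the genes with the most similar course, by Pearson's r of mean log2 CPM among 8429 genes with a mean of at least 20 CPM in 1 group, were Zfp459 for Tet1 (r = 0.977), Wdr33 for Dnmt3l (r = 0.932), N4bp2 for Dnmt3b (r = 0.964), Zbtb5 for Dnmt3a (r = 0.975), Dgkd for Dnmt1 (r = 0.965) and Tuba1b for Uhrf1 (r = 0.977). These are descriptions over 11 points that share the same 21 libraries. Of 34 other DNA methylation genes measured, 5 rose and 5 fell at 8 h, 6 rose and 15 fell at day 1, 4 rose and 16 fell at day 2, and 6 rose and 13 fell at day 4, where 18.3%, 51.7%, 48% and 54.3% of all genes passed. Gadd45g, a stress-response gene that has been linked to active demethylation, went from 0 reads in both 0 h libraries to 33 and 41 reads at day 1 (adjusted p = 4.61e-09), at least 16-fold higher when each 0 h library was set to a floor of 3 reads. Prdm14, a pluripotency factor that represses Dnmt3 genes, went from 33 and 25 reads to 3 and 2 (adjusted p = 6.06e-05), and Zfp57, which keeps methylation at imprinted loci, changed by −2.20 ± 0.24 on the log2 scale (adjusted p = 2.44e-08).

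Loss of DPY30 during RA treatment changed few members past the threshold. Against DMSO at the same time, 1 of 9 genes passed at 8 h (0.762% of all genes), 1 at day 1 (7.24%), 2 at day 2 (13.3%) and 1 at day 4 (18.2%), whereas 5, 2, 2 and 6 of 9 had an unadjusted p below 0.05. Uhrf1 was lower at 8 h, day 2 and day 4, Dnmt3l was higher at day 1 and Dnmt3a was higher at day 2. Each of these calls was lost when some single library was left out. The 0 h libraries carry no auxin arm, and the differences between auxin and DMSO rest on 2 libraries each, so differences that did not pass are not shown to be absent.

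Uhrf1 was at 229 and 229 CPM in auxin and 325 and 323 CPM in DMSO at 8 h, at 111 and 109 against 142 and 152 CPM at day 2, and at 86.9 and 96.7 against 107 and 112 CPM at day 4. The arms did not overlap at any of these times. The log2 differences were −0.58 ± 0.10, −0.50 ± 0.11 and −0.43 ± 0.12 (adjusted p = 0.00172, 0.00357 and 0.0108). Without replicate 2 of auxin at 8 h the first gave an adjusted p of 0.0672, without replicate 2 of DMSO at day 2 the second gave 0.0663, and the third was lost without replicate 1 of auxin or replicate 2 of DMSO at day 4 (up to 0.125). Without multiply mapped reads the 8 h call held. Those of day 2 and day 4 were lost, at −0.39 and −0.33 (adjusted p = 0.112 and 0.191). The day 4 call was also lost in DESeq2 (adjusted p = 0.0517) and at −0.26 without TMM scaling (adjusted p = 0.109), which corrects library sizes for RNA composition. Of the 13 S-phase genes 0 passed at 8 h, where their median was −0.16, 5 fell at day 2 and 5 fell at day 4 (0.762%, 13.3% and 18.2% of all genes passed), and their part was not tested at any of these times. At 8 h the 4 direct RA target genes summed to 161 to 188 CPM in auxin against 274 to 276 CPM in DMSO and the mES markers to 3099 to 3204 against 3575 to 3810 CPM, and their part was not tested either.

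At day 1, the low point of the RA course, Dnmt3l was at 39.0 and 43.1 CPM in auxin against 25.5 and 14.9 CPM in DMSO, a difference of 1.07 ± 0.24 (adjusted p = 0.00661). It was 0.70 (adjusted p = 0.169) without replicate 2 of DMSO, the lowest library, and the call was also lost without replicate 2 of auxin. The auxin effect on Dnmt3l differed between day 1 and 8 h by 1.25 (adjusted p = 0.0212) and between day 1 and day 2 by 1.22 (adjusted p = 0.0275), calls that 5 and 6 of 8 fits with 1 library left out did not keep, and the second was lost without TMM scaling (adjusted p = 0.0591).
Tet1 was at 82.9 and 82.9 CPM in auxin against 114 and 106 CPM in DMSO at 8 h, and at 35.5 and 35.4 against 25.5 and 24.8 CPM at day 1. Neither difference passed (−0.49 ± 0.15 and 0.55 ± 0.21, adjusted p = 0.125 and 0.117), but the difference between the effects did, at 1.04 (adjusted p = 0.0248). It was lost in each of 8 fits with 1 library left out, without TMM scaling (adjusted p = 0.0590) and without multiply mapped reads (adjusted p = 0.132). Of all genes, 2.53% passed in the contrast of day 1 with 8 h and 1.56% in that with day 2. Between day 1 and day 4 the auxin effect passed for 0 of 9 genes in edgeR and 0 in DESeq2 (7.11% of all genes in edgeR), with 4 at an unadjusted p below 0.05. At day 1 the 4 direct RA target genes summed to 732 to 775 CPM in auxin and 1408 to 1508 CPM in DMSO, and at 8 h they were lower in auxin as well, as given above for Uhrf1. The part of a slower RA response in these differences was not tested.

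Dnmt3a was at 105 and 108 CPM in auxin against 68.0 and 68.1 CPM in DMSO at day 2, without overlap, a difference of 0.57 ± 0.15 (adjusted p = 0.0128) that failed the threshold whichever library was left out (adjusted p up to 0.0811). In auxin it went on to 153 and 182 CPM at day 4 and 168 and 167 CPM at day 6. Between days 4 and 6 of auxin 2 of 9 genes passed (10.6% of all genes). Dnmt3b fell from 189 and 198 CPM to 109 and 128 CPM, by 0.72 ± 0.13 (adjusted p = 0.000802), which held in every fit with 1 library left out. In DMSO it was at 133 and 149 CPM at day 4, below both auxin libraries with a difference of 0.28 ± 0.13 that did not pass (adjusted p = 0.127). It was at 194 CPM in the day 6 library, above the auxin libraries of that day, where no test was made. Dnmt3l, whose day 4 libraries lay above the 95.1 and 83.0 CPM of DMSO without passing (0.28 ± 0.16, adjusted p = 0.256), went in auxin from 119 and 126 CPM to 149 and 199 CPM, 0.50 ± 0.16 (adjusted p = 0.0448), which was lost without either day 4 library or replicate 2 of day 6 and in DESeq2 (adjusted p = 0.104). Tet2 at day 4 was at 43.4 and 42.7 CPM in auxin against 56.3 and 56.4 CPM in DMSO, also without overlap, at −0.56 ± 0.23 (adjusted p = 0.0888), and passed without the filter on low counts (−0.60, adjusted p = 0.0242). Without TMM scaling Dnmt3a, Dnmt3b and Dnmt3l passed at day 4 as well, at 0.46, 0.46 and 0.46 (adjusted p = 0.0183, 0.00890 and 0.0393). The arms also differed in marker levels, since at day 4 the primitive endoderm markers summed to 388 to 396 CPM in auxin against 621 to 634 CPM in DMSO. The mES markers summed to 1617 to 1658 against 2019 to 2047 CPM, and 6 feeder or fibroblast markers to 55.2 to 56.5 against 29.4 to 38.7 CPM. At day 2 feeder or fibroblast markers summed to 20.6 to 24.5 CPM in auxin against 7.93 to 8.24 CPM in DMSO. Neural markers then summed to 131 to 143 against 109 to 122 CPM, while the mES and primitive endoderm sums overlapped between the arms. At day 6 the primitive endoderm markers summed to 347 to 421 CPM in auxin against 1130 CPM in DMSO. The part of these markers' cells in the differences was not tested. Of the 34 other pathway genes 5 rose at day 1 of auxin against DMSO (7.24% of all genes passed), among them Prdm14 with 13 and 12 reads in auxin against 3 and 2 in DMSO (adjusted p = 0.0207).

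In undifferentiated mES cells, SLAM-seq counts total reads, which follow the pool of RNA, and T>C reads, which come from RNA made during labelling. Before any degrader, RNA of Tet1 and Tet2 carried the label at a higher mean rate in each line than RNA of the other members with enough reads. T>C conversions per T position in Tet1 reads were 1.72% to 1.94% in DPY30–mAID, 0.950% to 1.27% in RBBP5–FKBP and 0.775% to 1.12% in dKO cells. Over all genes the rates were 0.998% to 1.08%, 0.554% to 0.642% and 0.473% to 0.533%, so every Tet1 library lay above every all-gene value of its line. Tet2 lay higher still, at 2.35, 2.23 and 2.88 times the all-gene mean in the 3 lines, against 1.78, 1.87 and 1.89 times for Tet1.
Dnmt1, Dnmt3a, Dnmt3b, Dnmt3l, Uhrf1 and Tdg had 0.390 to 1.10 times the all-gene mean. Single libraries overlapped, since Dnmt3a was at 1.39% in replicate 1 of RBBP5–FKBP, above Tet1 at 1.27% and Tet2 at 1.31% in the same library, and at 0% and 0.263% in the other replicates. Tet3, with 0 to 16 T>C reads per 0 h library, could not be placed. In unlabelled Quant-seq libraries the pooled rate was 0.0232% for Tet1, 0.00518% for Tet2 and 0.0287% for all genes, so mismatches without label were rare in these genes. No test was made of these rates, which depend on synthesis and on decay of the RNA.

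**Figure D2:**
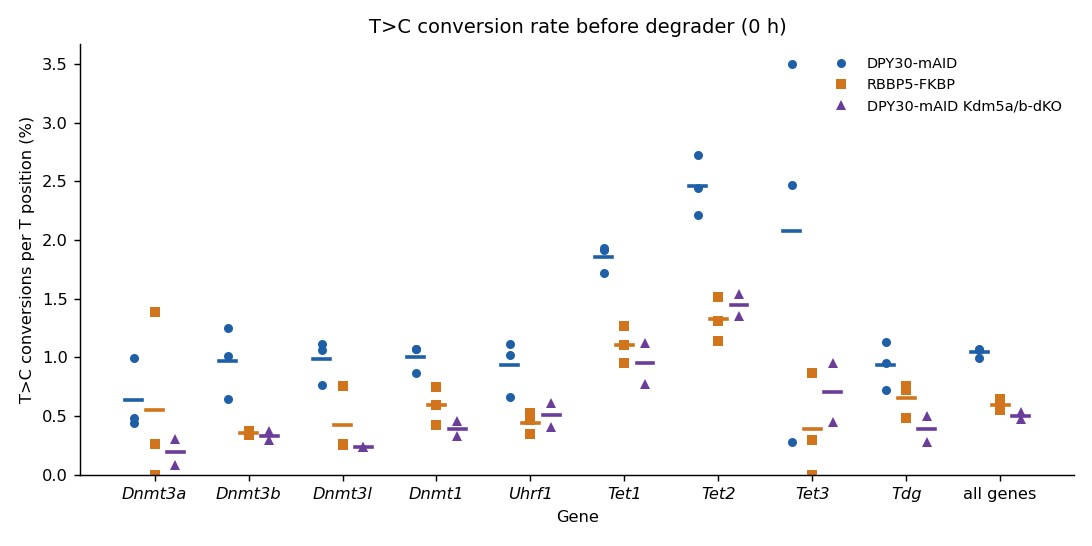
T>C conversions per T position covered, in percent (vertical axis), for each gene and for all genes together in the 0 h SLAM-seq libraries of the 3 lines, with points for libraries and bars for means. Tet1 and Tet2 lie above all genes in every library, while Tet3 is scattered because few reads cover it.

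T>C reads of Tet1, Tet2 and Uhrf1, scaled to the total reads of each library, were called lower after removal of DPY30. Each of these calls was lost when some single library was left out. Of the 9 genes, 0 passed at 2 h (0% of 6317 genes; 0 members at an unadjusted p below 0.05 in edgeR and 0 passed in DESeq2), 2 at 8 h (16.3%) and 3 at 24 h, all lower (3.55%, and 2.72% lower). On this scale the median of all genes was −0.72 at 8 h and −0.14 at 24 h, and the median of the 9 genes was −0.66 and −0.73. T>C reads made up 15.3% to 16.1% of reads at 0 h but 13.0%, 9.82% and 5.51% in replicates 1, 2 and 3 at 8 h. T>C CPM at 8 h were 5.01 to 13.6 for Dnmt3l and 8.66 to 15.5 for Dnmt1. They lay below the 0 h libraries of these genes, at 18.5 to 22.9 and 16.3 to 28.3, without passing in edgeR.

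At 0 h the Tet1 libraries held 184, 191 and 170 T>C CPM. They held 169, 154 and 76.6 T>C CPM at 8 h, followed by 95.1, 77.6 and 89.6 at 24 h. All 24 h values lay below all 0 h values, and replicate 3 at 8 h, the library with the fewest T>C reads, stood apart from the other 8 h libraries. Tet1 fell by 1.06 ± 0.29 at 24 h (adjusted p = 0.0262), but each of the 6 fits with 1 library left out raised the adjusted p above the threshold (up to 0.126), with values of −1.11 to −0.99.
Tet2 was at 102, 60.9 and 86.9 T>C CPM at 0 h, 46.4, 30.5 and 34.2 at 8 h, and 30.5, 32.0 and 47.6 at 24 h, without overlap with 0 h. It fell by 1.27 ± 0.32 at 8 h (adjusted p = 0.00529) and 1.18 ± 0.32 at 24 h (adjusted p = 0.0251). The first was lost without replicate 1 of 0 h (adjusted p = 0.0510), and the second without any 1 library other than replicate 2 of 0 h (up to 0.158).
Uhrf1 was at 47.4, 56.3 and 56.9 T>C CPM at 0 h, 34.5, 26.1 and 23.7 at 8 h, and 21.3, 27.2 and 17.8 at 24 h. Again no library of 8 h or 24 h reached the 0 h range, whereas those of 2 h, at 41.9 to 58.7, overlapped it. The falls at 8 h and 24 h were 1.03 ± 0.33 and 1.29 ± 0.34 (adjusted p = 0.0279 and 0.0205). The first was lost without any 1 of the 0 h libraries or replicate 2 of 8 h, and the second without any library but replicate 2 of 24 h (up to 0.133). With T>C reads scaled to each other, 0 of the 9 genes passed at 8 h, where Tet2 was at −0.45 and Uhrf1 at −0.25 (adjusted p = 0.310 and 0.690).

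**Figure D3:**
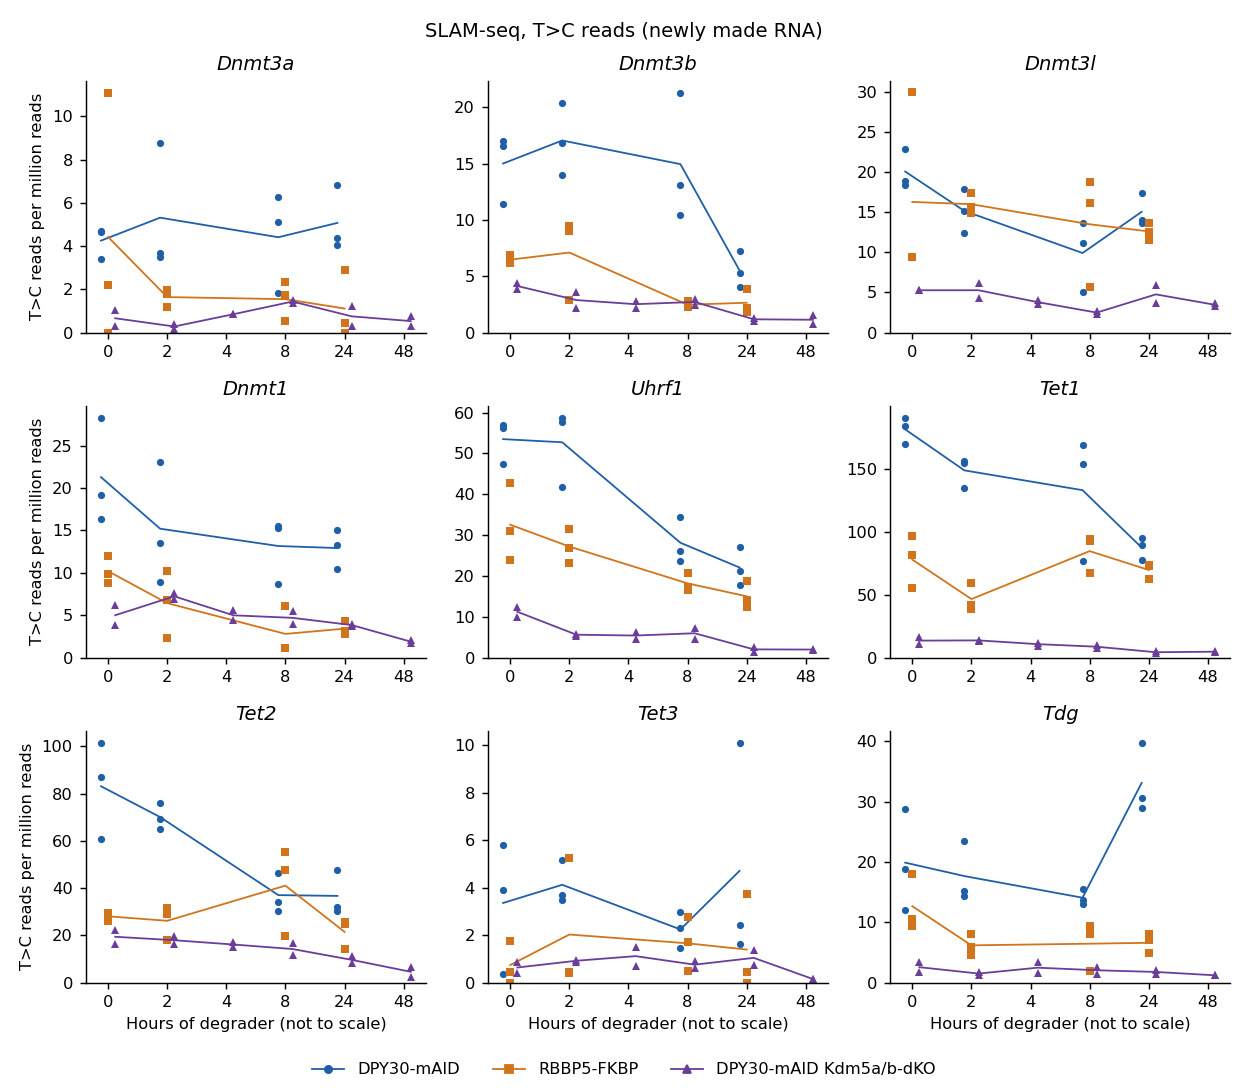
T>C reads of each gene in CPM of total reads (vertical axes) at each time of degrader (horizontal axis, not to scale) in DPY30–mAID (circles), RBBP5–FKBP (squares) and Kdm5a/b-dKO cells (triangles), with 1 point per library. T>C reads of Tet1, Tet2 and Uhrf1 in DPY30–mAID cells at 24 h lie below all their 0 h libraries.

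Total reads, which are deeper, gave a firmer picture of DPY30 loss at 24 h. At that time 6 of 9 genes passed, all lower (33% of 9848 genes passed, 17% lower), against 2 of 9 at 8 h (13.2%). Tet1 was at 586, 592 and 572 CPM at 0 h, 669, 753 and 767 CPM at 8 h, and 358, 328 and 356 CPM at 24 h, a fall of 0.76 ± 0.10 at 24 h (adjusted p = 1.67e-08). The 24 h libraries lay far below the other times, and the 8 h libraries lay above 0 h with a difference of 0.22 ± 0.10 that did not pass (adjusted p = 0.136) but did without TMM scaling (0.32, adjusted p = 0.0175).
Tet2 went from 191, 152 and 220 CPM at 0 h to 93.1, 93.6 and 105 CPM at 24 h, without overlap, a fall of 0.96 ± 0.15 (adjusted p = 9.25e-07). Uhrf1 went from 323, 322 and 280 CPM to 163, 165 and 143 CPM, a fall of 0.99 ± 0.12 (adjusted p = 2.92e-09). These 3 genes and Dnmt3b passed at 24 h whichever library was left out. At 8 h Uhrf1 was at 251, 245 and 271 CPM, already below all 0 h libraries, a fall of 0.38 ± 0.12 (adjusted p = 0.0229) that was lost without replicate 1 or 2 of either time (up to 0.101) and without TMM scaling (−0.27, adjusted p = 0.115).

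Dnmt3b turned direction with time. Total reads were 81.5, 92.6 and 117 CPM at 0 h, 168, 156 and 157 CPM at 8 h, and 63.0, 58.2 and 55.7 CPM at 24 h, so the groups did not overlap. It rose by 0.62 ± 0.16 at 8 h (adjusted p = 0.00507) and fell by 0.73 ± 0.17 at 24 h (adjusted p = 0.000431) relative to 0 h. Its T>C reads were 16.6, 11.4 and 17.0 CPM at 0 h, 21.3, 13.1 and 10.5 CPM at 8 h, and 4.01, 7.27 and 5.25 CPM at 24 h, differences of −0.11 ± 0.46 and −1.45 ± 0.49 that did not pass in edgeR (adjusted p = 0.898 and 0.0826). The 24 h fall passed in DESeq2 (−1.46, adjusted p = 0.0321) and with T>C reads scaled to each other (−1.33, adjusted p = 0.0280).
Dnmt1 and Dnmt3l fell by 0.60 ± 0.17 and 0.54 ± 0.17 at 24 h (adjusted p = 0.00590 and 0.0131). The first was lost without replicate 3 of 24 h (adjusted p = 0.0688) and the second without replicate 3 of 0 h or replicate 1 or 3 of 24 h (up to 0.0861). Dnmt3a, Tet3 and Tdg differed from 0 h by −0.21 ± 0.21, −0.02 ± 0.51 and 0.15 ± 0.16 (adjusted p = 0.473, 0.985 and 0.485). Of 31 other pathway genes tested, 1 rose and 13 fell at 24 h (33% of all genes passed, 17% lower), with Prdm14 at 14, 18 and 25 reads at 0 h and 0, 0 and 1 reads at 24 h (adjusted p = 2.64e-05).

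**Figure D4:**
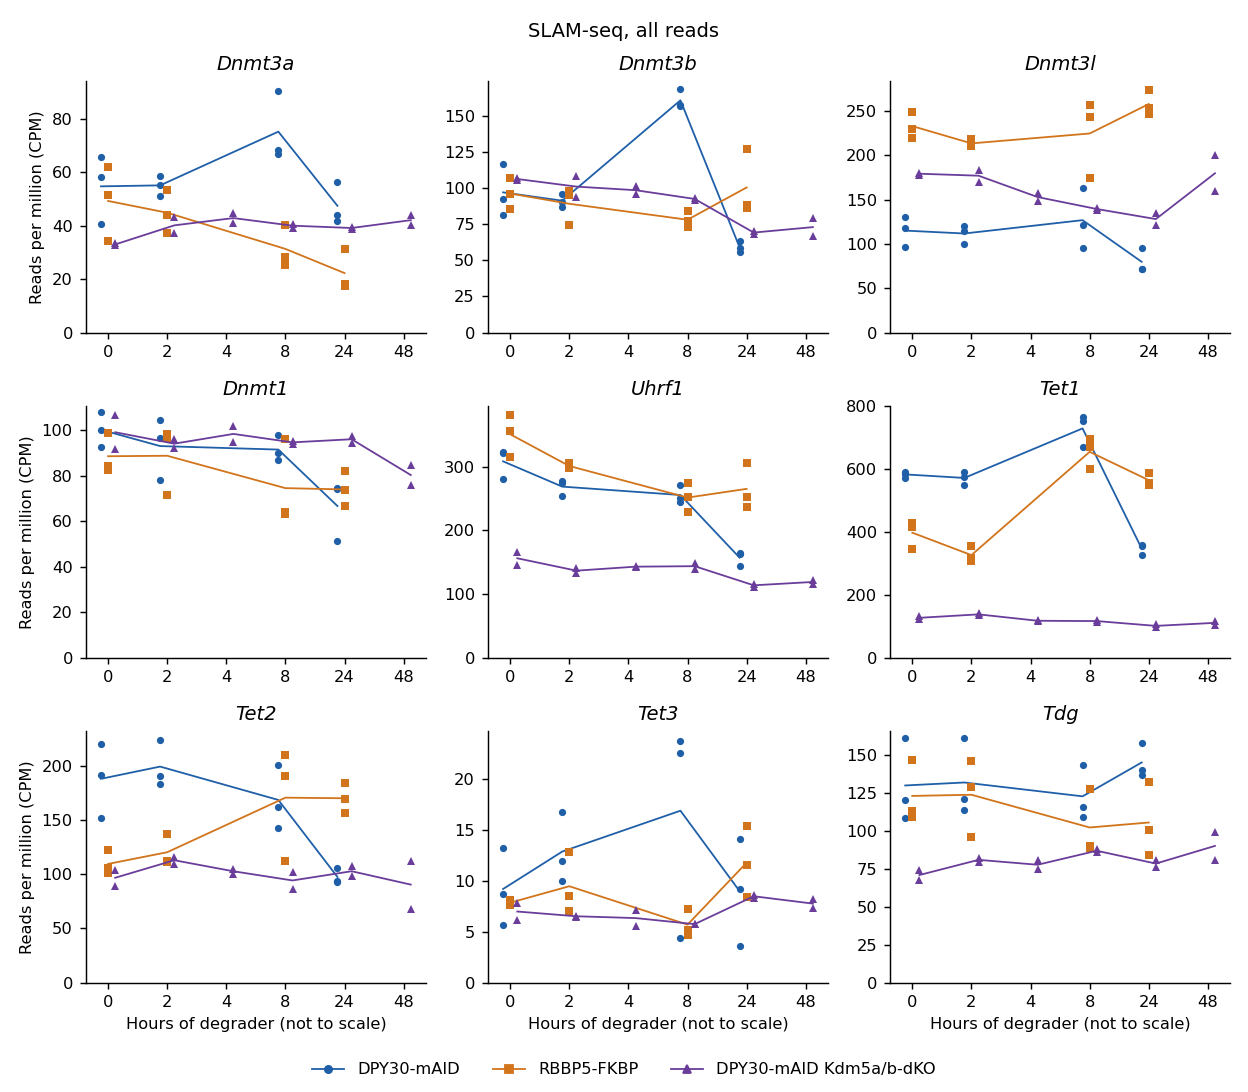
Total SLAM-seq reads of each gene in CPM (vertical axes) at each time of degrader (horizontal axis, not to scale), with DPY30–mAID as circles, RBBP5–FKBP as squares and Kdm5a/b-dKO as triangles, 1 point per library. At 24 h Tet1 lies at 328 to 358 CPM in DPY30–mAID, below its 0 h range, and at 550 to 589 CPM in RBBP5–FKBP cells, above its 0 h range.

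After removal of RBBP5, another core subunit, total reads of Tet1 and Tet2 were higher at 8 and 24 h. Of the 9 genes 3 passed at 8 h (9.16% of 9676 genes) and 4 at 24 h (7.34%). Tet1 was at 430, 347 and 416 CPM at 0 h, 355, 308 and 316 CPM at 2 h, 695, 601 and 670 CPM at 8 h, and 555, 550 and 589 CPM at 24 h, so that 8 h and 24 h lay above 0 h in each of 6 libraries, while 2 of 3 libraries at 2 h lay below the 0 h range. It rose by 0.68 ± 0.12 at 8 h (adjusted p = 0.000787), which held in every fit with 1 library left out, and by 0.48 ± 0.12 at 24 h (adjusted p = 0.0150), which was lost without replicate 2 of 0 h or replicate 3 of 24 h (up to 0.0857).
Tet2 was at 122, 105 and 101 CPM at 0 h, 190, 112 and 210 CPM at 8 h, and 156, 170 and 184 CPM at 24 h. Replicate 2 at 8 h overlapped 0 h, and the 24 h libraries did not. The rises of 0.59 ± 0.18 and 0.61 ± 0.18 passed narrowly (adjusted p = 0.0441 and 0.0439). The first was lost without replicate 2 or 3 of 0 h or replicate 1 or 3 of 8 h (up to 0.169). The second was lost without any library but replicate 1 of 0 h (up to 0.153) and without multiply mapped reads (adjusted p = 0.0508).

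Uhrf1 fell here as well, from 315, 356 and 382 CPM at 0 h to 228, 252 and 274 CPM at 8 h and 237, 306 and 252 CPM at 24 h, with no treated library in the 0 h range. The falls were 0.52 ± 0.14 and 0.44 ± 0.14 (adjusted p = 0.0179 and 0.0494), both lost without replicate 2 or 3 of 0 h or replicate 1 of the treated time. The second was also lost without replicate 3 of 24 h (up to 0.200) and without TMM scaling (adjusted p = 0.0633). Dnmt3a was at 61.9, 34.4 and 51.6 CPM at 0 h and 17.3, 18.2 and 31.3 CPM at 24 h, also without overlap. It fell by 1.18 ± 0.30 (adjusted p = 0.0153). This call was lost without replicate 1 of 0 h or replicates 1 or 2 of 24 h (up to 0.0885).
Dnmt1, Dnmt3b, Dnmt3l, Tet3 and Tdg did not pass at either time. In T>C reads, 0 of the 8 genes tested passed at 2 h (0.252% of 4761 genes; 1 at an unadjusted p below 0.05, 1 in DESeq2) and 0 at 8 h (7.65%; 2 unadjusted, 1 in DESeq2), and 1 passed at 24 h (26%). In DESeq2 Tet1 at 2 h was at −0.79 (adjusted p = 0.0232) and Uhrf1 at 8 h at −0.89 (adjusted p = 0.0351). T>C CPM of Tet1 were 55.4 to 96.5 at 0 h and 38.6 to 59.3 at 2 h. At 8 h and 24 h they were 67.4 to 93.9 and 62.5 to 73.7, within the 0 h range. T>C CPM of Tet2 at 24 h were 14.2 to 25.5, below the 25.9 to 29.6 of 0 h. The share of T>C reads per library was 9.10% to 10.1% at 0 h and 4.85% to 5.33% at 24 h. The gene that passed at 24 h was Uhrf1, at 30.9, 23.8 and 42.9 T>C CPM at 0 h and 12.4, 18.6 and 14.0 at 24 h, a fall of 1.15 ± 0.35 (adjusted p = 0.0101) where all genes had a median of −0.91, and it was lost without replicate 3 of 0 h or replicate 1 of 24 h (up to 0.0892). With T>C reads scaled to each other it was −0.26 (adjusted p = 0.805).

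The difference between the degron lines was then tested directly, as the RBBP5–FKBP effect minus the DPY30–mAID effect. For total reads at 24 h it was 1.22 ± 0.14 for Tet1 (adjusted p = 1.34e-08) and 1.55 ± 0.24 for Tet2 (adjusted p = 1.07e-05), and both passed whichever of the 12 libraries was left out. At this time 6 of 9 genes passed (16.4% of 11562 genes), with Dnmt3b at 0.75, Dnmt3l at 0.65 and Uhrf1 at 0.54 higher and Dnmt3a at −0.97. Uhrf1 was lost without replicate 2 of RBBP5–FKBP at 24 h (adjusted p = 0.0557) or without multiply mapped reads (adjusted p = 0.0708). Dnmt3b was lost without replicate 3 of DPY30–mAID at 0 h or replicate 1 of RBBP5–FKBP at 24 h (up to 0.0757). Dnmt3l and Dnmt3a were lost in 7 and 6 of 12 fits. Dnmt3b in RBBP5–FKBP cells was at 107, 96.1 and 85.7 CPM at 0 h, 77.2, 84.0 and 72.8 CPM at 8 h, and 127, 88.5 and 85.8 CPM at 24 h, so that 8 h lay below 0 h and 24 h overlapped it. Dnmt3l was at 118, 96.9 and 131 CPM at 0 h, 121, 164 and 95.7 CPM at 8 h, and 72.2, 96.0 and 71.4 CPM at 24 h in DPY30–mAID cells. In RBBP5–FKBP cells it was at 249.4, 230 and 220 CPM at 0 h, 257, 243 and 174 CPM at 8 h, and 247, 274 and 254 CPM at 24 h, overlapping 0 h at both times. Dnmt3a was at 58.1, 65.6 and 40.6 CPM at 0 h, 68.2, 90.5 and 67.0 CPM at 8 h, and 41.7, 44.1 and 56.5 CPM at 24 h in DPY30–mAID cells, where 8 h lay above 0 h and 24 h overlapped it. In RBBP5–FKBP cells it was at 40.3, 25.4 and 28.2 CPM at 8 h, overlapping the 0 h libraries.
At 8 h 4 of 9 passed (4.53%), of which Dnmt3b at −0.95 (adjusted p = 0.00548) held in every fit with 1 library left out. Dnmt3a at −1.04, Tet1 at 0.47 and Tet2 at 0.87 were lost in 8, 5 and 8 of 12 such fits, each of them without replicate 1 of DPY30–mAID at 0 h or 8 h. Tet1 was also lost without the filter on low counts or without TMM scaling (adjusted p = 0.0913 and 0.0734).
In T>C reads, where all genes had a median difference of 0.35 at 8 h, Tet2 passed at that time, at 1.78 ± 0.43 (adjusted p = 0.0360; 1 of 9 genes against 0.273% of 6968), and was lost in 7 of 12 fits with 1 library left out (up to 0.130). The fits that kept it were those without replicate 2 of DPY30–mAID at 0 h, replicates 1 or 3 of it at 8 h, replicate 1 of RBBP5–FKBP at 0 h or replicate 2 of it at 8 h. With T>C reads scaled to each other it was 1.31 and did not pass (adjusted p = 0.0899). T>C CPM of Tet2 at 8 h in RBBP5–FKBP cells were 47.8, 19.9 and 55.4 against 29.6, 25.9 and 28.7 at 0 h, so replicate 2 lay below and the other libraries above the 0 h range. At 24 h 0 of 9 passed in T>C reads (12.1% of all genes; 2 at an unadjusted p below 0.05, 1 in DESeq2, which was Tdg). All genes had a median difference of −0.63 at 24 h. With T>C reads scaled to each other Tet1 and Tet2 passed, at 1.51 and 1.36 (adjusted p = 5.2e-05 and 0.0189). The lines also differ in tag, degrader and clone, which cannot be told apart from the subunit that was lost.

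**Figure D5:**
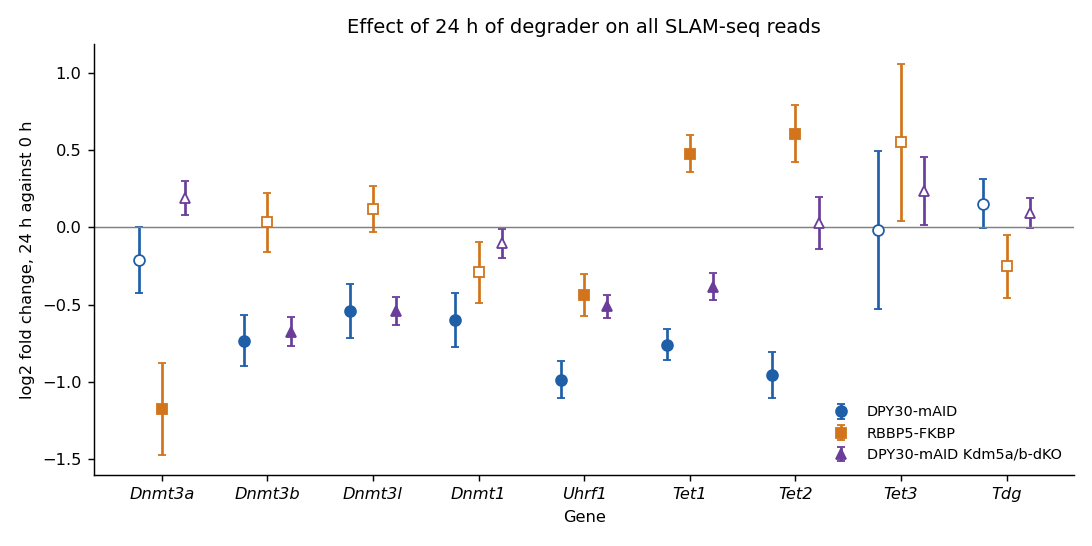
Log2 fold change of total reads at 24 h against 0 h of degrader (± standard error of the edgeR fit) for the 9 genes in the 3 lines, filled where the adjusted p was below 0.05 and open otherwise. Tet1 and Tet2 are at −0.76 and −0.96 in DPY30–mAID cells and at 0.48 and 0.61 in RBBP5–FKBP cells.

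In Kdm5a/b-dKO cells, in which removal of H3K4me3 demethylases precedes loss of DPY30, T>C reads of the family fell along with those of many other genes. Of 7 genes with enough T>C reads (Dnmt3a and Tet3 were too low), 0 passed at 2 h (0% of 5965 genes), 4 h (0.453%) and 8 h (1.14%) in edgeR, where 1, 1 and 4 had an unadjusted p below 0.05 and DESeq2 passed 0 at each time. At 24 h 4 of 7 passed, all lower (42.3%, and 42.2% lower), and at 48 h 6 of 7, all lower (72.4%, and 72.3% lower). All genes had a median of −0.80 at 24 h and −1.29 at 48 h, and the 7 genes one of −1.08 and −1.63. The share of T>C reads per library was 4.69% to 5.27% at 0 h and 2.04% to 2.37% at 48 h.

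Uhrf1 T>C CPM were 10.0 and 12.4 at 0 h, 5.82 and 5.37 at 2 h, 4.55 and 6.24 at 4 h, 7.35 and 4.56 at 8 h, 1.44 and 2.57 at 24 h, and 1.98 and 1.93 at 48 h. Each treated library lay below both 0 h libraries. Uhrf1 fell by 2.54 ± 0.33 at 24 h (adjusted p = 2.5e-09) and its 48 h value was −2.60 ± 0.34, while its differences at 2, 4 and 8 h were −1.01, −1.09 and −0.94 (adjusted p = 0.231, 0.0518 and 0.0617).
Tet1 T>C CPM were 10.9 and 16.0 at 0 h, 7.50 and 9.72 at 8 h, 3.60 and 4.84 at 24 h, and 4.27 and 5.05 at 48 h, log2 values of −1.74 ± 0.27 at 24 h (adjusted p = 3.73e-07) and −1.63 at 48 h. Tet2 T>C CPM were 16.5 and 22.3 at 0 h, 8.20 and 11.0 at 24 h, and 2.44 and 6.69 at 48 h, falls of 1.08 and 2.17 ± 0.26, the second resting on 16 and 45 T>C reads at 48 h and running from −3.09 to −1.62 with 1 library left out. Neither gene overlapped its 0 h libraries from 24 h on.
Dnmt3b, with 30 and 30 T>C reads at 0 h and 5 to 10 at 24 and 48 h, fell by 1.84 and 1.94, and Dnmt1 fell by 1.50 at 48 h. The calls of Uhrf1, Tet1, Tet2 and Dnmt3b at 24 and 48 h and of Dnmt1 at 48 h held in every fit with 1 library left out. Tdg at 48 h was at −1.18 (adjusted p = 0.0356). This call was lost in 3 of 4 such fits, all but that without replicate 1 of 0 h (−1.56 to −0.61, adjusted p up to 0.427). When T>C reads were scaled to each other, 2 of 7 genes passed at each of 24 and 48 h. In that setting Tet2 at 24 h was at −0.28, Dnmt3b at −1.06 and −0.65 at 24 and 48 h, Tet1 at −0.32 and Dnmt1 at −0.20 at 48 h (adjusted p = 0.493, 0.169, 0.476, 0.511 and 0.835), and Tdg at 48 h was at 0.12.

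In total reads of the dKO cells 4 of 9 genes passed at 24 h, all lower (11.2% of 11394 genes, and 6.02% lower), and at 48 h 4 of 9, all lower (14.5%, and 7.93% lower). Dnmt3b was at 107 and 106 CPM at 0 h, 70.3 and 68.0 CPM at 24 h, and 79.1 and 66.7 CPM at 48 h, falls of 0.67 ± 0.09 and 0.63 (adjusted p = 0.000252 at 24 h). Uhrf1 was at 166 and 146 CPM at 0 h, 116 and 111 CPM at 24 h, and 122 and 115 CPM at 48 h, falls of 0.51 ± 0.07 and 0.48 (adjusted p = 0.000379 at 24 h).
The 24 h and 48 h libraries of both genes lay below the 0 h range, and these calls held in every fit with 1 library left out. Dnmt3l fell by 0.54 ± 0.09 at 24 h (adjusted p = 0.00150), Tet1 by 0.38 ± 0.09 at 24 h and 0.29 at 48 h, and Dnmt1 by 0.40 at 48 h. The calls of Tet1 and Dnmt1 were lost in 2 of 4 fits with 1 library left out (replicate 2 of 0 h with replicate 2 of 24 h for Tet1 at 24 h, or with replicate 1 of 48 h for both at 48 h; adjusted p up to 0.263). The call of Tet1 at 48 h was also lost in DESeq2, without TMM scaling and without multiply mapped reads (adjusted p = 0.0713, 0.129 and 0.0765).

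Set directly against DPY30–mAID cells, the dKO effect differed past the threshold for 1 gene. Tet2 total reads at 24 h were 97.8 and 107 CPM against 89.0 and 104 CPM at 0 h in dKO cells, and the difference of its effect from that in DPY30–mAID cells was 0.97 ± 0.26 (adjusted p = 0.0123; 9.39% of 11562 genes passed), lost without replicate 1 of 0 h or replicate 2 of 24 h of the dKO (up to 0.102). At this time Uhrf1 passed in DESeq2 and without TMM scaling, at 0.45 and 0.52 (adjusted p = 0.0297 and 0.0431). At 8 h 0 of 9 passed in total reads (0.943% of all genes; 2 at an unadjusted p below 0.05, 1 in DESeq2), with Dnmt3b at −0.84 ± 0.23 (adjusted p = 0.0587), which passed in DESeq2, without TMM scaling and without multiply mapped reads (adjusted p = 0.00614, 0.0343 and 0.0487).
In T>C reads 0 of 9 passed in edgeR at 8 h (0.244% of 6968 genes; 0 at an unadjusted p below 0.05) and at 24 h (1.35%; 1 unadjusted), and 0 in DESeq2 at both times, with Uhrf1 at 24 h at −1.25 ± 0.54 (adjusted p = 0.246) where all genes had a median of −0.70. T>C effects in dKO cells were therefore not shown to differ from those in DPY30–mAID cells for single members.

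Before auxin, 6 of 9 genes differed between dKO and DPY30–mAID cells in total reads (37.8% of 11562 genes). Tet1 was at 121 and 132 CPM against 586, 592 and 572 CPM, a log2 difference of −2.23 ± 0.11 (adjusted p = 6.85e-20). Tet2, Uhrf1, Tdg and Dnmt3a were lower by log2 values of −0.98, −1.01, −0.90 and −0.75, and Dnmt3l was higher by 0.61. The call of Dnmt3a was lost without replicate 2 of DPY30–mAID or either dKO library (adjusted p up to 0.0752), and that of Tdg without multiply mapped reads (−1.76, adjusted p = 0.173). The dKO libraries were sequenced more deeply and covered 11.2 T positions per read on average against 18.7 in DPY30–mAID libraries. In Quant-seq of DPY30–mAID cells at 0 h, with 11.6 T positions per read, Tet1 was at 206 and 166 CPM. Genotype and the difference in T positions per read therefore cannot be told apart in this comparison. Over all SLAM-seq times, direct RA target genes summed to 68.0 to 98.4 CPM in dKO against 2.01 to 10.1 CPM in DPY30–mAID libraries. Primitive endoderm markers summed to 15.8 to 22.1 against 1.37 to 14.6 CPM and neural markers to 33.6 to 47.5 against 53.8 to 125 CPM. Feeder or fibroblast markers summed to 12.7 to 25.0 against 0.802 to 4.97 CPM. In Quant-seq at 0 h these sums, in this order, were 19.7 to 22.8, 4.48 to 8.65, 110 to 118 and 35.0 to 45.2 CPM. Their part was not tested.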

How the data were processed

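The deposited values are raw read counts (total and T>C) per merged 3′ UTR interval that the authors made from 3′-end libraries without molecular identifiers. The file headers name SlamDunk 0.3.4; for Quant-seq the methods instead name HISAT2 2.2.1 and featureCounts on mm10, and which of them made those counts was not settled. Intervals were summed per gene, with symbols and coordinates from GENCODE vM21 (GRCm38) and promoters from RefSeq. Filtering for reads with several conversions was not repeated.

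edgeR 4.0.16 quasi-likelihood fits (R 4.3.3, Benjamini-Hochberg adjustment over all tested genes) were run per SLAM-seq line, over the SLAM-seq lines together for differences between lines, and over 21 Quant-seq libraries, restricted to genes averaging 10 or more reads in any group. T>C library sizes were total reads with TMM factors of total reads. DESeq2 1.42.0, other scalings, no filter, a replicate block and leaving out each library were alternatives; 7 differences of effects and the removal of multiply mapped reads were added after the data were seen. Scripts were tested on simulated data; tables used Python 3.11.15.

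The members, the 35 pathway genes, the 15 S-phase genes and the markers were chosen with earlier results of these data known. All 9 members are named, with up to 3 pathway genes per comparison by largest change among those that passed. Where separate cultures are not stated (Quant-seq), p-values measure the spread between these samples, which may be technical. The authors' own CPM columns were not used.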

Additional observations from a re-analysis of the deposited data

Results flagged for a closer look

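The effects below differed between lines or times in a test of the difference itself, on the log2 scale. Between RBBP5–FKBP and DPY30–mAID cells (first minus second), total reads differed at 8 h for Dnmt3a (−1.04), Dnmt3b (−0.95), Tet1 (0.47) and Tet2 (0.87), and at 24 h for Dnmt3a (−0.97), Dnmt3b (0.75), Dnmt3l (0.65), Tet1 (1.22), Tet2 (1.55) and Uhrf1 (0.54). Among the members that passed at both times, the difference of Dnmt3b had opposite signs at 8 h and 24 h. T>C reads of Tet2 differed at 8 h by 1.78. Between Kdm5a/b-dKO and DPY30–mAID cells, total reads of Tet2 differed at 24 h by 0.97. In RA, the effect of auxin differed between day 1 and 8 h for Dnmt3l (1.25) and Tet1 (1.04), and between day 1 and day 2 for Dnmt3l (1.22). All of these except the T>C difference of Tet2 come from comparisons added after the data were seen.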

How the results depend on the processing

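Numbers are members that passed. With TMM factors from T>C reads, T>C counts were 0 in DPY30–mAID cells at 8 h (2 in the report), 0 in RBBP5–FKBP cells at 24 h (1), 2 and 2 in dKO cells at 24 and 48 h (4 and 6), and 0 and 2 for RBBP5–FKBP minus DPY30–mAID at 8 and 24 h (1 and 0), and Tdg in dKO cells at 48 h changed sign to 0.12. DESeq2 gave 1 for RBBP5–FKBP T>C reads at 2 h and 1 at 8 h (0 each), 1 for the 24 h T>C difference of that line from DPY30–mAID (0), 1 and 2 for the total-read difference of dKO from DPY30–mAID cells at 8 and 24 h (0 and 1), 0 for auxin against DMSO at day 4 (1) and 1 for auxin day 6 against day 4 (2). Without the filter there was 1 for DPY30–mAID T>C reads at 8 h and 2 for auxin at day 4. Without TMM there were 1 and 2 for the dKO differences of total reads at 8 and 24 h, 3 for auxin at day 4, 1 for the day 1 minus 8 h auxin effect (2) and 0 for day 1 minus day 2 (1). Without multiply mapped reads there was 1 for the dKO difference at 8 h, 1 for auxin at day 2 (2), 0 at day 4 and 1 for day 1 minus 8 h. Same-numbered libraries did not deviate together (correlations −0.19 to 0.34, means near 0), so the replicate number pairs nothing; with it as a block, dKO T>C reads gave 1 at 4 h and 1 at 8 h (Uhrf1), the 24 h T>C difference of RBBP5–FKBP gave 1 (Tdg), and Tet2 at 8 h and Uhrf1 at 24 h in RBBP5–FKBP total reads lost their calls. Leaving out each library in turn, T>C counts ranged 0 to 0, 0 to 4 and 0 to 1 in DPY30–mAID at 2, 8 and 24 h, 0 to 0, 0 to 1 and 0 to 1 in RBBP5–FKBP at the same times, and 0 to 0, 0 to 1, 0 to 0, 4 to 4 and 5 to 6 in dKO cells at 2, 4, 8, 24 and 48 h. Total counts ranged 1 to 2 and 4 to 6 in DPY30–mAID, 1 to 3 and 1 to 3 in RBBP5–FKBP at 8 and 24 h, 3 to 4 and 2 to 6 in dKO cells at 24 and 48 h, and 5 to 6 for dKO against DPY30–mAID at 0 h. Differences of dKO from DPY30–mAID ranged 0 to 0 and 0 to 0 for T>C and 0 to 1 and 0 to 2 for total reads at 8 and 24 h, and those of RBBP5–FKBP 0 to 1 and 0 to 1 for T>C and 1 to 4 and 3 to 6 for total reads. In DMSO they ranged 3 to 4, 6 to 7, 6 to 6 and 6 to 7 at 8 h and days 1, 2 and 4 against 0 h, 5 to 6, 2 to 2 and 3 to 4 for the steps 8 h to day 1, day 1 to 2 and day 2 to 4, and auxin against DMSO 0 to 1, 0 to 1, 0 to 1 and 0 to 2 at 8 h and days 1, 2 and 4. Auxin day 6 against day 4 ranged 1 to 2, and the day 1 auxin effect minus that of 8 h, day 2 and day 4 ranged 0 to 1 each. With 2 or 3 libraries per group and few T>C reads, smaller changes were not detectable at this depth.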
